A study of Homo sapiens with 6 samples.

Results

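The clustered protocadherins are cell-surface adhesion proteins of the cadherin superfamily, encoded in 3 neighbouring gene clusters, alpha, beta and gamma, on chromosome 5. They were taken from the deposited table by symbol (PCDHA, PCDHB, PCDHGA, PCDHGB or PCDHGC with a number, or C and a number), leaving out 5 pseudogene symbols. This gave 54 of 35793 gene symbols: 14 of alpha, 16 of beta, 12 of gamma A, 7 of gamma B and 5 of the C-type (PCDHAC1, PCDHAC2, PCDHGC3, PCDHGC4 and PCDHGC5). One of the alpha symbols, PCDHA14, is annotated as a pseudogene and was kept because the symbol rule keeps it.

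RNA was sequenced from cardiomyocytes on day 15 of differentiation of WTC11, a human induced pluripotent stem cell line. The control libraries (WT, n = 3) came from unedited WTC11, and the knockout libraries (STK25KO, n = 3) from a WTC11 derivative in which CRISPR/Cas9 had been used for a homozygous knockout of STK25, a serine/threonine kinase of the sterile-20 family. No drug or other treatment was applied to either genotype. The knockout is described as 1 line, so an effect of the edit and a difference between 2 lines cannot be told apart.

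In the alpha and gamma clusters, each isoform has its own promoter and its own large first exon, which encodes the extracellular and transmembrane parts and is spliced to constant exons shared by the whole cluster. Beta genes consist of a single coding exon and have no constant exons. The isoforms are best known from neurons, where each cell transcribes its own small selection of alpha, beta and gamma A or B isoforms and the extracellular parts bind like to like between cells. Promoter choice there involves CTCF and cohesin, which bring a promoter to a distant enhancer, and DNA methylation, which keeps the other promoters silent.

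Between the genotypes, 2 isoforms fell to a listed 0 in all knockout libraries: PCDHGA11 of gamma A and PCDHGB5 of gamma B. PCDHGA10 of gamma A and PCDHB5 fell to 2.42% and 2.74% of their WT means. These 4 are called lost below. One isoform, PCDHA12, rose 3.22-fold. The remaining 30 of the 35 isoforms with enough signal to test did not pass the threshold, and PCDHGA8, PCDHGB6 and PCDHGB7, whose promoters lie beside or between those of the lost gamma isoforms, were still present. The other such neighbours, PCDHGA9 and PCDHGA12, were too low to test. They reached 6.04 and 10.2 normalized counts in WT, and 1.78 each in STK25KO. The share of tested isoforms past the threshold, 14.3%, was close to the 12.8% of all 15536 genes tested.

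Sequences around the promoter element of the clusters are shown for the isoforms that changed and for other isoforms of the same subfamily, among its 3 most abundant, that did not pass the threshold. RefSeq promoter sequences (GRCh38.p14, 250 bases before to 50 after the start) matched 47 of the 54 symbols; PCDHA3, PCDHA13, PCDHA14, PCDHB6, PCDHB11, PCDHGA12 and PCDHGC5 had no match. Searched on both strands, the letters CGCT, the core of the element described for protocadherin promoters, were in 97.9% of the matched members and in 71.9% of all genes with a promoter. In each line below, all from the plus strand, capitals mark the 8-mer held by the most promoters of that subfamily.
PCDHA12, chr5:140875236-140875285: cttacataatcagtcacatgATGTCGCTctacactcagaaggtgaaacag
PCDHA10, chr5:140855833-140855882: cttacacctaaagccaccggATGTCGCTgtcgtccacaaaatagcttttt
PCDHA4, chr5:140806971-140807020: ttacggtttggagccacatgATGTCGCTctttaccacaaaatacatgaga
PCDHB5, chr5:141135171-141135220: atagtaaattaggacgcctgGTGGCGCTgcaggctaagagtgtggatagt
PCDHB2, chr5:141094536-141094585: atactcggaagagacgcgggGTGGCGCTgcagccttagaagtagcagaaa
PCDHB15, chr5:141245306-141245355: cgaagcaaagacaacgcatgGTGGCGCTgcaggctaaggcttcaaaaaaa
PCDHGA10, chr5:141412924-141412973: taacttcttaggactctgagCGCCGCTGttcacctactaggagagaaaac
PCDHGA11, chr5:141420965-141421014: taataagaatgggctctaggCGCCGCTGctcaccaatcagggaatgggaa
PCDHGA8, chr5:141392561-141392610: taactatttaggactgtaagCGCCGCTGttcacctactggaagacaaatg
PCDHGB5, chr5:141397849-141397898: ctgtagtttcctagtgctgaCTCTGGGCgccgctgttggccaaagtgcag
PCDHGB4, chr5:141387603-141387652: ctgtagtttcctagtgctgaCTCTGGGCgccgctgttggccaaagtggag
PCDHGB6, chr5:141407910-141407959: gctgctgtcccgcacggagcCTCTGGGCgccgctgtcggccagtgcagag

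ATGTCGCT was in 9 of 11 alpha promoters and 0.282% of all genes' promoters, and GTGGCGCT in 13 of 14 beta promoters and 1.38% of all. CGCCGCTG was in 6 of 11 gamma A promoters (5.19% of all), and CTCTGGGC, which overlaps no CGCT but lies just before one in the windows shown, in 5 of 7 gamma B promoters (4.96% of all). These 8-mers were picked from the same promoters and tie with others, so their shares are a description. Among tied 8-mers, those holding CGCT were preferred, so its presence in the marked 8-mers partly reflects that choice. The windows of PCDHGB5, which was lost, and PCDHGB4, which was not, differ at 1 of 50 bases. Those of PCDHGA10 and PCDHGA8 differ at 9 of 50, and those of PCDHGA10 and PCDHGA11, both lost, at 21 of 50. AGNNGGCG, a stretch out of the CTCF motif, was in 12.8% of matched members and 34.7% of all genes, and TATAAA in 12.8% and 14%. An exact match to these letters does not measure CTCF sites. The median GC content was 40.7% in member promoters and 58.7% over all promoters. Member promoters held a median of 2.5 CpG per 100 bases against 4.67 over all promoters, and the C-type promoters held 7.67.

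The constant exons decide how far the reads can tell isoforms apart. In the GENCODE gene models of GRCh38, the last 456 coding bases are identical in the 15 alpha genes with a coding sequence (alpha 1 to 13 and PCDHAC1 and PCDHAC2), the last 372 in all 22 gamma genes, and none in beta. The first 60 bases of these shared ends, which encode the start of the common cytoplasmic tail, are given to show what every isoform of a cluster carries.
alpha: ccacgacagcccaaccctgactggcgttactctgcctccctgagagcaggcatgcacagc
gamma: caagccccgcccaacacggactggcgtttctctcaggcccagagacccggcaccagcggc

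Of the 31-base stretches of each member's transcript, a median of 33.6% occurred in no other gene's transcript for alpha, 46.0% for gamma A, 44.2% for gamma B, 53.1% for the C-type and 74.9% for beta. Values of single alpha and gamma isoforms therefore depend on how the counting divided shared reads, which is not given in the sources used here, and each is uncertain to that extent. Summed levels of a whole cluster do not depend on a division of reads among its own members. They would depend on reads left out or given to other genes, which is not given either. Sums of alpha without its C-type genes, of gamma A, of gamma B and of the C-type can also depend on the division among members. In bulk RNA, fewer cells that express an isoform and less of its RNA per cell cannot be told apart.

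STK25 itself, the check of the labels, was at 8874, 6774 and 8710 normalized counts in WT and 3906, 3434 and 3820 in STK25KO, a log2 fold change of -1.12 (SE 0.19, limma adjusted p = 0.00903); its transcript was lower but present, and the edit's position was not used here. Sequencing depth was 22443904 to 53224112 reads per library. The clustered protocadherins took 0.0131 to 0.0238% of the reads in WT and 0.00812 to 0.0150% in STK25KO. Markers of other cell types also differed: 4 of 5 smooth muscle markers tested rose (summed normalized count 88074 to 96833 in WT, 495548 to 544018 in STK25KO), as did 3 of 10 neural markers (SOX2, PAX6 and TUBB3, with sums of all 16 of 4942 to 8312 in WT and 7701 to 17474 in STK25KO). NES alone held 4502 to 7747 of the neural sums in WT and 6481 to 16198 in STK25KO. It overlapped between genotypes and missed the threshold (limma adjusted p = 0.340). Of the neural markers, SLC17A6 was listed at 0 throughout and DCX had at most 5 reads in a library. Of the 10 cardiomyocyte markers, 2 fell (NKX2-5 and PLN), and 5 of the 10 had a higher mean log2 value in STK25KO. MYH7, ACTN2, MYL7 and TTN were higher and MYH6 lower without overlap. All of these missed the threshold (limma adjusted p from 0.0531 for MYH6 to 0.124 for TTN). The sums were 1297640 to 1613990 in WT and 1830510 to 3326520 in STK25KO, of which MYL7 alone held 441630 to 739950 and 860614 to 2324410. Of the 10 fibroblast and stromal markers, 4 rose (TCF21 and COL3A1 among them) and 1 fell, COL1A2, with sums of 13007 to 26601 and 8520 to 17310. One of 5 epicardial markers tested rose (ALDH1A2, with sums of all 6 of 129.9 to 203 and 519.9 to 652), as did 1 of 5 pluripotency markers (TDGF1, with sums of all 6 of 986 to 1065 and 3105 to 4503). TDGF1 alone held 487 to 630 of the pluripotency sums in WT and 2612 to 3970 in STK25KO. Without overlap, L1TD1 was lower in STK25KO (64.9 to 86.1 in WT, 24.9 to 47.9 in STK25KO) and POU5F1 was higher. Both missed the threshold (limma adjusted p = 0.104 and 0.158). Of 4 endothelial markers tested, 0 passed the threshold in limma and 1 had an unadjusted p under 0.05, beside 4275 of all 15536 genes. The part of these shifts in the protocadherin results was not tested.

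**Figure D1:**
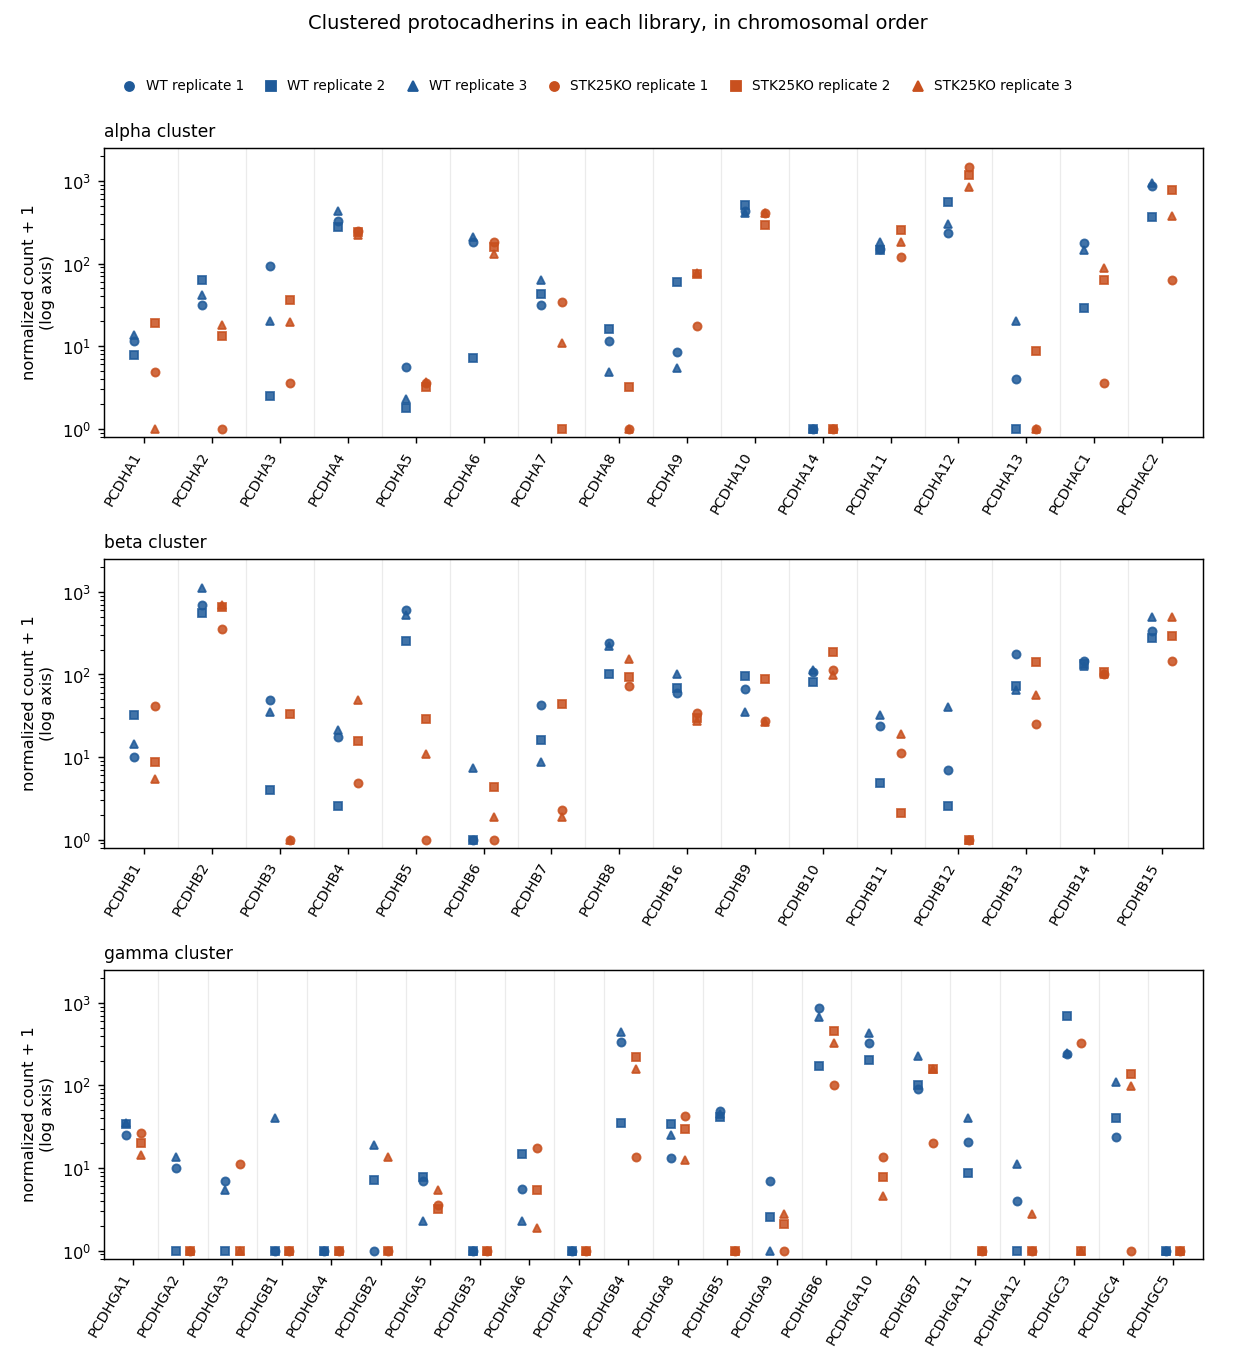
Normalized count plus 1 (log axis) of every clustered protocadherin in each of the 6 libraries, in chromosomal order within the alpha, beta and gamma clusters, blue for WT and orange for STK25KO, with 1 marker shape per replicate number. A value of 1 on the axis is a listed 0, where PCDHGB5 and PCDHGA11 lie in all 3 STK25KO libraries and in none of the WT libraries.

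Most isoforms were expressed at low levels, and 5 had no read in any library. PCDHA14, PCDHGA4, PCDHGA7, PCDHGB3 and PCDHGC5 were listed at 0 in all 6 libraries. The WT libraries held a read for 46, 43 and 48 of the 54 members, and the STK25KO libraries for 34, 39 and 38. At least 10 normalized counts were reached by 35, 31 and 40 members in WT and by 27, 29 and 27 in STK25KO, so more isoforms were above that level in each WT library than in any STK25KO library, though WT replicate 1 was the shallowest of the 6. A mean of at least 10 over the 6 libraries, the level required for testing, was met by 35 members and missed by 19.

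The order of the isoforms changed at its top. Per kilobase of transcript, the highest mean levels in WT were those of PCDHB2 (191), PCDHB5 (135), PCDHGB6 (124) and PCDHAC2 (121). In STK25KO the highest was PCDHA12 (223), ahead of PCDHB2 (137), PCDHB15 (77.1) and PCDHA10 (70.4). PCDHB5, just behind PCDHB2 in WT, was at 3.68 per kilobase in STK25KO. PCDHA12 had stood at 69.4 per kilobase in WT, below PCDHA10 at 85.4.

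Of the 35 members tested, 5 had an adjusted p under 0.05 in limma, 14.3% against 12.8% of all genes tested. Of these, 1 was higher in STK25KO (2.86%, against 5.97% of all genes) and 4 were lower (11.4%, against 6.79%). The values of the 2 genotypes did not overlap for 9 of the 35 (25.7%, against 33.4% of all genes). A lower mean log2 value in STK25KO was found for 28 of the 35, beside 49.6% of all genes. The median log2 fold change was -0.68, where the median over all genes was 0.0052. The median of the members was -0.311 without STK25KO replicate 1 and -1.15 without STK25KO replicate 2. An unadjusted p under 0.05 was found for 8 of the 35 members, and for 4275 of all 15536 genes tested. For a single gene, the exact permutation test over 3 against 3 libraries cannot go below 0.1, which is the value each of the 5 gave.

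**Figure D2:**
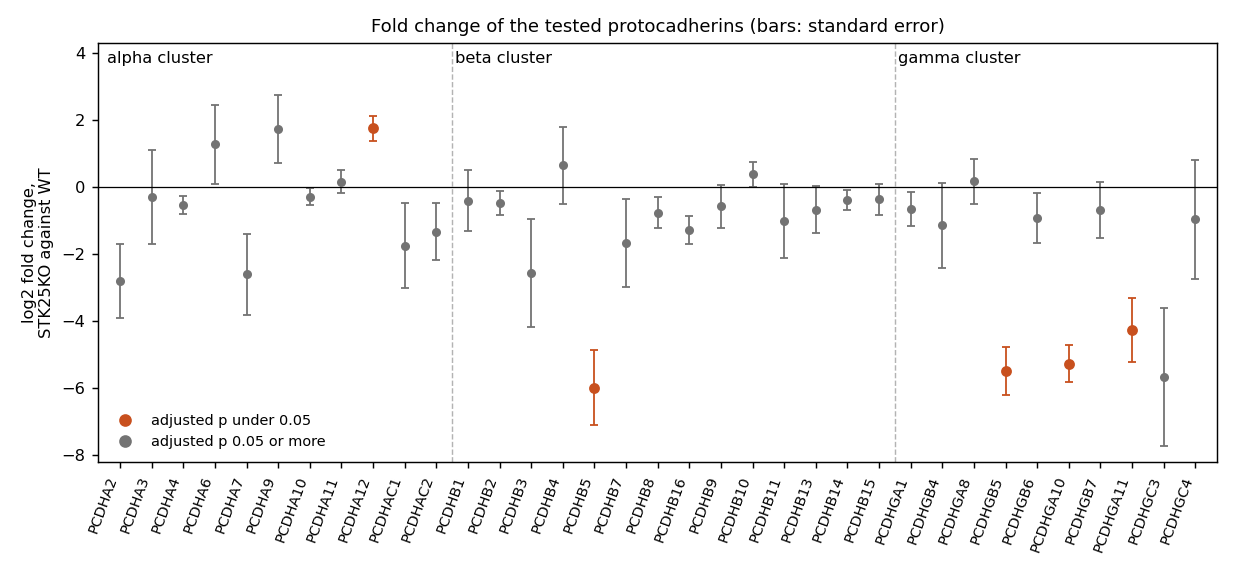
Log2 fold change of STK25KO against WT on the log2(value + 1) scale, with its standard error, for the 35 members tested, in chromosomal order. The 5 members past the threshold are in orange: PCDHA12 above 0, and PCDHB5, PCDHGB5, PCDHGA10 and PCDHGA11 below -4, with PCDHGA8, PCDHGB6 and PCDHGB7 between -1 and 1 beside them.

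Relative to its WT level gamma A fell furthest of the 5 subfamilies, although in normalized counts its drop was smaller than those of beta, gamma B and the C-type, and 1 isoform accounted for most of it. PCDHGA10 (start of its gene model at chr5:141412987, plus strand, like all members) was at 323, 199.6 and 425 normalized counts in the WT libraries and at 12.7, 6.69 and 3.55 in the STK25KO libraries. The lowest WT value was far above the highest STK25KO value, and the mean was 41.3-fold lower in STK25KO. The log2 fold change was -5.27 (SE 0.55, limma adjusted p = 0.00124). It stayed past the threshold whichever library was left out.

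PCDHGA11, whose first exon lies downstream of that of PCDHGA10 with PCDHGB7 between them, was at 19.6, 7.62 and 39.5 in WT and listed at 0 in all 3 STK25KO libraries. It was a low isoform, and against a floor of 3 reads per library its WT mean was at least 6.80-fold higher. The limma log2 fold change was -4.27 (SE 0.95, adjusted p = 0.0254), and the limma adjusted p was 0.0583 without STK25KO replicate 2 and 0.0702 without STK25KO replicate 3. Without WT replicate 1 or 3 its mean was too low to be tested.

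The other gamma A isoforms were few and low, and none of them passed the threshold. PCDHGA8 was at 12.1, 33.5 and 24.2 in WT and 41.9, 28.98 and 11.6 in STK25KO, and the genotypes overlapped (log2 fold change 0.17, SE 0.67). PCDHGA1 was at 24.2, 32.8 and 34.4 in WT and 25.4, 18.9 and 13.3 in STK25KO, also overlapping (-0.67, SE 0.51). The direction of PCDHGA8 turned without WT replicate 1 and without STK25KO replicate 1. Of the 8 gamma A members not tested, PCDHGA4 and PCDHGA7 were at 0, and the highest value of the others was 16.5.

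Summed over gamma A, WT held 414, 296 and 554 normalized counts and STK25KO 109, 62.4 and 37.3, with no overlap and a mean at 16.6% of WT. PCDHGA10 made up 67.5 to 78.1% of the sum in WT and 9.52 to 11.6% in STK25KO. Without it, a sum formed after the values were seen, WT held 90.6, 96.0 and 128 and STK25KO 96.6, 55.7 and 33.8, and the genotypes overlapped. PCDHGA8 made up 2.92 to 11.3% of gamma A in WT and 31 to 46.4% in STK25KO. PCDHGA1 made up 5.84 to 11.1% in WT and 23.3 to 35.7% in STK25KO.

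**Figure D3:**
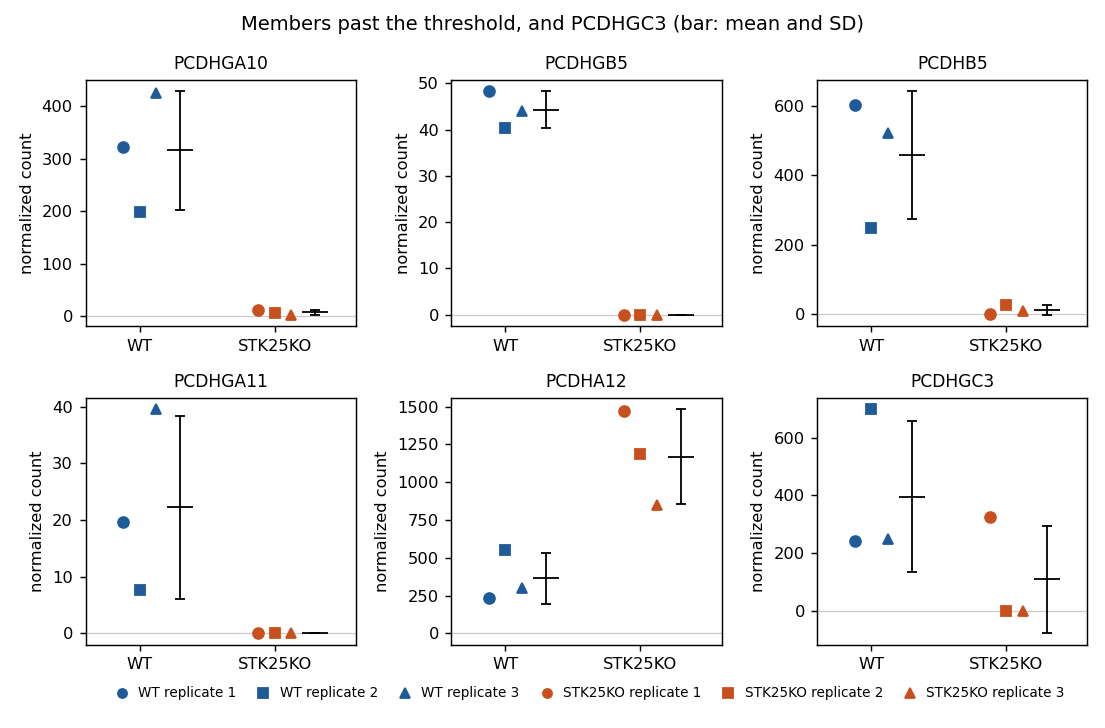
Normalized count of the 5 members past the threshold and of PCDHGC3 in each library, with the mean and SD beside the points (linear axes, each with its own range). PCDHGB5 and PCDHGA11 lie at 0 in all 3 STK25KO libraries, where PCDHGA10 reaches at most 12.7 and PCDHB5 at most 27.9. PCDHA12 is higher in all 3, and PCDHGC3 is at 0 in STK25KO replicates 2 and 3 only.

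In gamma B, PCDHGB5 was lost while the 3 more abundant isoforms remained. PCDHGB5 (gene model from chr5:141397987) was at 48.3, 40.4 and 44.0 in WT and listed at 0 in each STK25KO library. The WT libraries lay close together, and their mean was at least 13.5-fold higher than the floor of 3 reads per library. The limma log2 fold change was -5.50 (SE 0.72, adjusted p = 0.00310), and it stayed past the threshold whichever library was left out.

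PCDHGB4, whose promoter window matches that of PCDHGB5 at all but 1 base, was at 337, 34.3 and 438 in WT and 12.7, 219.6 and 158 in STK25KO. PCDHGB6, the most abundant gamma B isoform, was at 872, 169.9 and 675 in WT and 99.1, 454 and 321 in STK25KO. PCDHGB7 was at 89.1, 101 and 225 in WT and 19.1, 156 and 158 in STK25KO. None of these 3 passed the threshold, and in all 3 the genotypes overlapped: their limma adjusted p-values were 0.619, 0.475 and 0.658.

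In STK25KO replicate 1 all 3 were lower than in every other library. WT replicate 2 was the lowest WT library for PCDHGB4 and PCDHGB6. The gamma B sums followed the same split: 1346, 352 and 1438 in WT, and 131, 829 and 649.7 in STK25KO, a mean at 51.3% of WT with overlap. Without STK25KO replicate 1 the log2 ratio of these sums moved from -1.09 to -0.26, and PCDHGB4 and PCDHGB7 turned to 0.11 and 0.31 on the log2 scale. Of the 3 gamma B members not tested, PCDHGB1 had 38.9 normalized counts in WT replicate 3 and 0 elsewhere, PCDHGB2 reached 17.9 and PCDHGB3 was at 0.

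In the beta cluster, PCDHB5 was lost from a group of isoforms that otherwise did not pass the threshold. PCDHB5 is a single-exon gene (chr5:141135218-141138625), and 74.3% of the 31-base stretches of its transcript occur in no other gene's transcript. It was at 603, 249.8 and 523 in WT and at 0, 27.9 and 9.78 in STK25KO. All WT values lay above all STK25KO values, and the mean was 36.5-fold lower in STK25KO. The limma log2 fold change was -5.99 (SE 1.13, adjusted p = 0.0138), and the limma adjusted p was 0.0680 without WT replicate 1 and 0.0582 without WT replicate 3.

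PCDHB2, the most abundant beta isoform, was at 695, 548 and 1124 in WT and 357, 649 and 684 in STK25KO (log2 fold change -0.48, SE 0.36, limma adjusted p = 0.451). PCDHB15 was at 337, 273 and 489.9 in WT and 145, 288 and 497 in STK25KO (-0.37, SE 0.47, limma adjusted p = 0.668). In both the genotypes overlapped. Without STK25KO replicate 1 the log2 fold change of PCDHB15 was 0.09.

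PCDHB16, named here after its values were seen, was at 58.9, 67.8 and 99.5 in WT and 33.0, 28.98 and 26.7 in STK25KO. Its genotypes did not overlap, and it missed the threshold (log2 fold change -1.29, SE 0.41, limma adjusted p = 0.0849), while the adjusted p was 0.0233 in DESeq2 on the recovered reads and, in limma, 0.0454 with equal totals and 0.0313 without the trend. Of the 14 beta members tested, 12 had a lower mean log2 value in STK25KO and 2 a higher one, PCDHB4 and PCDHB10. PCDHB6 and PCDHB12 were too low to test, with PCDHB12 at 6.04, 1.52 and 38.9 in WT and at 0 in all 3 STK25KO libraries.

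The beta sums were 2571, 1673 and 2943 in WT and 928, 1709 and 1723 in STK25KO. The STK25KO mean was 60.7% of WT, and WT replicate 2 fell within the STK25KO range. PCDHB5 made up 14.9 to 23.4% of the beta sum in WT and 0 to 1.63% in STK25KO. PCDHB2 made up 27.0 to 38.2% in WT and 38.0 to 39.7% in STK25KO. Without PCDHB5 the STK25KO mean was 74.4% of WT, again with overlap.

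Alpha moved in the other direction, through 1 isoform. PCDHA12 (chr5:140875302-141012344, with the shared constant exons at its downstream end) was at 236, 552 and 301 in WT and at 1473, 1186 and 848 in STK25KO. The lowest STK25KO value exceeded the highest WT value, and the mean was 3.22-fold higher. The limma log2 fold change was 1.74 (SE 0.37, adjusted p = 0.0202). The limma adjusted p was 0.0828 without WT replicate 1, 0.0782 without WT replicate 3 and 0.0606 without STK25KO replicate 2.

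The other abundant alpha isoforms did not pass the threshold. PCDHA10 was at 435, 507 and 404 in WT and 413, 289.8 and 406 in STK25KO, overlapping (log2 fold change -0.29, SE 0.25, limma adjusted p = 0.516). PCDHA4 was at 322, 277 and 429.9 in WT and 244, 237 and 219 in STK25KO. The PCDHA4 values did not overlap, but the difference missed the threshold (-0.53, SE 0.27, limma adjusted p = 0.250).

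Of the 9 alpha members tested, 5 had a lower and 4 a higher mean log2 value in STK25KO. PCDHA2, named after its values were seen, was at 30.2, 62.5 and 40.2 in WT and 0, 12.3 and 16.9 in STK25KO, with no overlap (-2.81, SE 1.11, limma adjusted p = 0.146). PCDHA6, also named after its values were seen, was at 181, 6.09 and 209.9 in WT and 182, 159 and 128 in STK25KO, with WT replicate 2 far below the other 5 libraries. Without that library its log2 fold change turned from 1.26 to -0.33. Of the 5 alpha members not tested, PCDHA14 was at 0 and the highest value of the others was 19.1.

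The alpha sums, without the C-type genes, were 1512, 1676 and 1688 in WT and 2490.1, 2276 and 1905 in STK25KO, with no overlap and a mean at 137% of WT. PCDHA12 made up 15.6 to 33.0% of the sum in WT and 44.5 to 59.2% in STK25KO. Without PCDHA12 the sums were 1276, 1123 and 1387 in WT and 1017, 1090.0 and 1057 in STK25KO, lower in each STK25KO library than in any WT library, with a mean at 83.5% of WT. Counting all 16 genes that share the alpha constant exons or lie among them, PCDHAC1 and PCDHAC2 included, the STK25KO mean was 109% of WT and the genotypes overlapped.

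**Figure D4:**
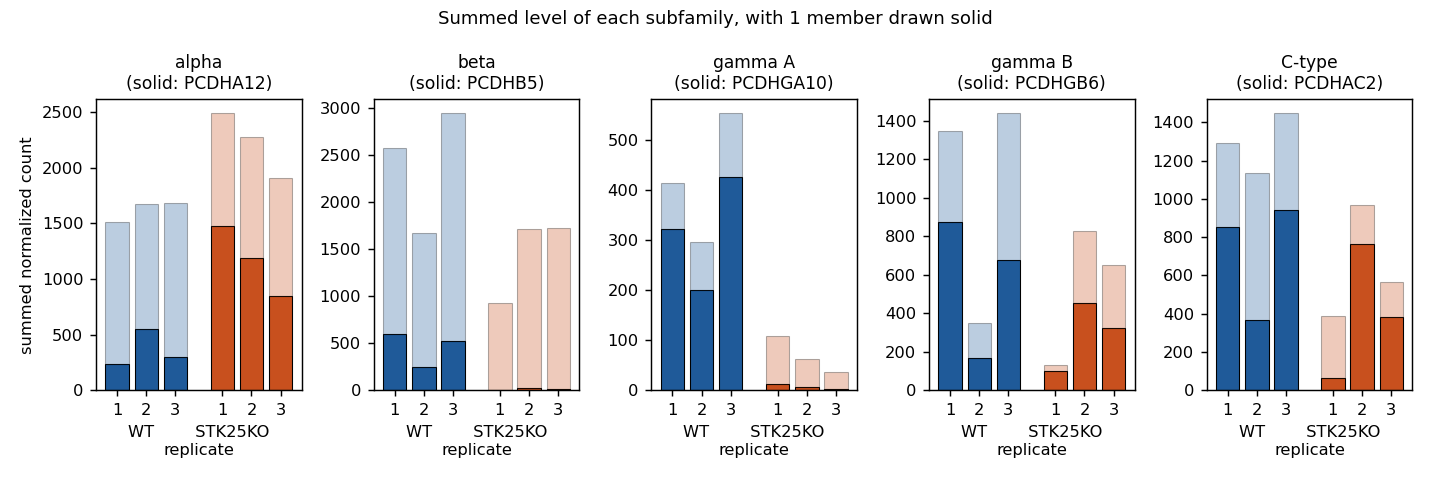
Summed normalized count of each subfamily in each library (full bar) with 1 member drawn solid, blue for WT and orange for STK25KO. PCDHA12 fills 44.5 to 59.2% of the alpha bars in STK25KO, and PCDHGA10 fills 67.5 to 78.1% of the gamma A bars in WT and 9.52 to 11.6% in STK25KO.

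The C-type isoforms, which in neurons are transcribed more uniformly than the others, did not pass the threshold singly. PCDHAC2 was at 855, 369 and 943 in WT and 62.3, 766 and 380.4 in STK25KO (log2 fold change -1.34, SE 0.85, limma adjusted p = 0.366). PCDHAC1 was at 175, 28.2 and 146 in WT and 2.54, 62.4 and 87.1 in STK25KO (-1.75, SE 1.27, limma adjusted p = 0.427). Both were lowest in STK25KO replicate 1, and WT replicate 2 was the lowest WT library for both.

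PCDHGC3 was at 240.2, 699 and 249 in WT and at 324, 0 and 0 in STK25KO. It was abundant in 4 libraries and listed at 0 in the other 2, STK25KO replicates 2 and 3. With all 6 libraries the limma log2 fold change was -5.66 (SE 2.06, adjusted p = 0.119), and without STK25KO replicate 1 it was -8.44 (limma adjusted p = 0.000422). The size depends on the model: the WT mean was 3.67-fold that of STK25KO, and the log2 fold change was -1.91 in edgeR (adjusted p = 0.521) and -1.86 in DESeq2, which gave no p.

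PCDHGC4 showed the reverse within the knockout, at 22.7, 38.8 and 109 in WT and 0, 138 and 97.8 in STK25KO, and did not pass the threshold (-0.97, SE 1.76, limma adjusted p = 0.782). Its direction turned without STK25KO replicate 1, to 1.32, and in edgeR and DESeq2, to 0.45 and 0.46. PCDHGC5 was at 0. Summed, the C-type genes held 1293, 1135 and 1447 in WT and 389, 966 and 565 in STK25KO, with no overlap and a mean at 49.6% of WT.

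Over whole clusters, the gamma genes together, C-types included, were at 2022, 1385 and 2349 in WT and 564, 1029.9 and 785 in STK25KO, with no overlap and a mean at 41.3% of WT. All 54 members summed to 7135, 5131 and 8069 in WT and 4047, 5843 and 4879.9 in STK25KO. That is 72.6% of WT, with STK25KO replicate 2 above WT replicate 2. Leaving out the 5 members past the threshold, the sum was 67.0% of WT and the genotypes overlapped.

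The comparison was extended to genes for cohesin and CTCF, for DNA methylation and for silencers reported at the clusters. Of 16 genes for cohesin, its loaders and CTCF, all tested, 0 passed the threshold in limma, and the median log2 fold change was -0.16. Of the 16, 3 had an unadjusted p under 0.05, beside 4275 of all 15536 genes tested. CTCF was at 1784, 2004 and 1722 in WT and 1140.2, 1288 and 1409 in STK25KO. Its values did not overlap and the log2 fold change was -0.52 (SE 0.19, limma adjusted p = 0.113), and DESeq2 gave an adjusted p of 0.0444.

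Of 13 genes for writing, erasing or reading DNA methylation, 1 rose, MBD4, a DNA glycosylase that binds methylated CpG, with a log2 fold change of 0.91 (limma adjusted p = 0.0132, lost under 5 of 17 alternatives). DNMT3B, a de novo DNA methyltransferase, was at 453, 232 and 638 in WT and 6.36, 123 and 95.1 in STK25KO. The DNMT3B values did not overlap, but the change missed the threshold (-3.20, SE 1.02, limma adjusted p = 0.0835). Its adjusted p was 0.0321 in limma without STK25KO replicate 1 and 0.00904 in DESeq2.

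Of 14 genes for silencers reported at these clusters, LRIF1, a partner of SMCHD1, rose (0.91, limma adjusted p = 0.0221) and TRIM28, a corepressor of zinc finger proteins, fell (-0.70, limma adjusted p = 0.0373). The call of TRIM28 was lost under 8 of 17 alternatives and that of LRIF1 under 6, with adjusted p-values up to 0.216 and 0.128. SMCHD1, a noncanonical SMC protein that represses clustered protocadherins, overlapped between genotypes (-0.12, SE 0.19, limma adjusted p = 0.745). The calls in these lists, 0 of 16, 1 of 13 (7.69%) and 2 of 14 (14.3%), stand beside 12.8% of all genes. In the lists of 13 and 14 genes, 5 each had an unadjusted p under 0.05, beside 4275 of all 15536 genes tested.

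Of 23 genes tested for partners and signalling of protocadherins, 1 rose and 1 fell, 8.7% against 12.8% of all genes. PTK2B, the kinase PYK2 that the cytoplasmic tails of alpha and gamma protocadherins bind and inhibit, was at 193, 203 and 115 in WT and 2822, 5105 and 4955 in STK25KO. Its log2 fold change was 4.64 (SE 0.33, limma adjusted p = 0.000261), and every STK25KO value was far above every WT value. CYFIP2, a subunit of the WAVE complex, had a log2 fold change of -1.42 (limma adjusted p = 0.0480) and missed the threshold under 9 of 17 alternatives, with adjusted p-values up to 0.176. PDCD10, a partner of STK25, overlapped between genotypes (0.46, SE 0.22, limma adjusted p = 0.234).

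Of 17 non-clustered protocadherins and FAT and Dachsous genes tested, 2 rose and 0 fell, 11.8% against 12.8% of all genes, with a median log2 fold change of 0.73. PCDH8 rose from 0, 0 and 4.47 to 33.0, 58.0 and 19.6 (4.29, SE 0.95, limma adjusted p = 0.0250), and DCHS1 rose by 1.16 on the log2 scale (limma adjusted p = 0.0269). Each of these 2 calls was lost under 8 alternatives, with adjusted p-values up to 0.0980 and 0.0835. Of 21 cadherins with CDH symbols and catenins tested, 6 rose and 1 fell, 33.3% against 12.8% of all genes. The one that fell was CDH3 (-2.16, limma adjusted p = 0.00768). CDH12 rose from 16.6, 21.3 and 49.8 to 225, 288 and 278 (3.28, SE 0.47, limma adjusted p = 0.00425), and CDH10 and CDH13 rose by 3.13 and 2.01.

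Genes flanking the clusters on chromosome 5 were also compared. Of 26 tested, 2 rose and 1 fell, 11.5% against 12.8% of all genes. TAF7, between beta and gamma on the minus strand (chr5:141260225-141320821), was at 8496, 9420 and 8273 in WT and 8297, 9793 and 10655 in STK25KO (0.13, SE 0.18, limma adjusted p = 0.717). DIAPH1, just downstream of gamma (chr5:141515016-141619055, minus strand), also overlapped (0.11, SE 0.26, limma adjusted p = 0.839), and SLC25A2, between beta and gamma, was at 0. RELL2 rose from 25.7, 3.81 and 10.2 to 669.9, 384 and 515 (5.50, SE 0.63, limma adjusted p = 0.00178). SPRY4 rose (1.55, limma adjusted p = 0.0221) and APBB3 fell (-1.42, limma adjusted p = 0.0338), calls lost under 5 and 6 of 17 alternatives.

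Without single libraries, the number of members past the threshold ran from 2 to 6. It was 2 without WT replicate 1 or WT replicate 3, 3 without STK25KO replicate 2, and 6 without STK25KO replicate 1, where PCDHGC3 joined. PCDHGA10 and PCDHGB5 were past it in each of these 6 fits.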

How the data were processed

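The deposited table lists 35793 gene symbols with 1 value in each of 6 libraries. Per the labels' protocols, RNA was column-purified with DNase digestion and made into cDNA and libraries with the Clontech Ultra Low v4 and NexteraXT kits. The submitters' processing notes name bcl2fastq 2.19, kallisto 0.44.0, DESeq2 1.28.1 and GRCh38, with no role or order; annotation, strand use and rounding are not given in the sources used here. Normalized counts, as the deposited table names its signal, were whole multiples of 1 step per library for 100% of values (tolerance 0.001), so whole reads were recovered from them.

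Tests used limma 3.58.1 in R 4.3.3 on log2(value + 1), with lmFit and eBayes with a trend, where the mean was 10 or more, and Benjamini-Hochberg adjustment over the 15536 genes tested (two-sided, threshold 0.05). Fold changes on this scale are shrunk for genes low in all libraries and can exceed the ratio of the means where single libraries are at 0. The fits were tested on simulated data. edgeR 4.0.16 and DESeq2 1.42.0 on the recovered reads, other scalings, pseudocounts and filters, a replicate block, and leaving out each library were alternatives. Floors of 3 reads cover counting error only, since no molecular identifiers are described. The replicates are labelled biological, and no pair of one genotype differed by as little as sampling noise allows (chi-square over its degrees of freedom, 18.9 to 363). It was 18.9 for WT replicates 1 and 3, and 162 and 325 for the pairs with WT replicate 2. It was 42.8 for STK25KO replicates 2 and 3, and 363 and 259 for the pairs with STK25KO replicate 1. 0 columns were left unused.

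Named members were those with an adjusted p under 0.05, the 3 most abundant of alpha, beta, gamma A and gamma B, and all C-type genes. Also named were STK25, up to 4 genes past the threshold from each list, and 7 genes whatever their p (CTCF, SMCHD1, DNMT3B, PDCD10, TAF7, SLC25A2 and DIAPH1). The members, lists and tests were chosen with earlier results of these data known. Lists were described by counts, with no set test. Protein sequences were not used here, and coding ends came from the gene models instead. Figures were drawn with matplotlib 3.10.9.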

Additional observations from a re-analysis of the deposited data

How the results depend on the processing

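Of the 5 members past the threshold, PCDHGA10 stayed past it under all 17 alternatives and PCDHGB5 under the 16 in which it was tested. The number of members past it was 3 with a minimum mean of 50, which left PCDHGB5 and PCDHGA11 untested, and ran from 2 to 6 without single libraries. The number of genes past it was 3210 in DESeq2, and from 792 to 2192 without single libraries. PCDHB5 reached an adjusted p of 0.0507 with a pseudocount of 0.1, and PCDHGA11 one of 0.0577 with a pseudocount of 10, both in limma. Same-numbered libraries did not deviate together (r = -0.235, -0.4 and 0.169 for replicates 1, 2 and 3), so the numbers were not taken as pairs. Across the genotypes, WT replicate 2 and STK25KO replicate 1 deviated most alike over the genes tested (r = 0.448). With the replicate block 798 genes and 3 members were past the threshold, and the limma adjusted p of PCDHA12 was 0.0554 and that of PCDHGA11 0.0918.

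Scaling to equal totals shifted the median of all genes to -0.276 (log2) and the share of higher calls from 46.8% to 27.1%. The log2 ratio of the alpha sums then fell from 0.45 to 0.16, and PCDHGA8, TAF7 and DIAPH1 turned to -0.10, -0.15 and -0.17. PCDHGC4 turned to 0.45 in edgeR and 0.46 in DESeq2. Without single libraries, log2 fold changes ran from -0.80 to 0.0861 for PCDHB15, -0.22 to 0.67 for PCDHGA8, -2.30 to 0.11 for PCDHGB4, -1.19 to 0.31 for PCDHGB7, -2.24 to 1.32 for PCDHGC4, -0.33 to 2.12 for PCDHA6 and -0.10 to 0.31 for DIAPH1; the cause was not tested. Outside the clusters, STK25, MBD4, LRIF1, TRIM28, CYFIP2, PCDH8, DCHS1, SPRY4 and APBB3 missed the threshold under 2 to 9 alternatives each, without a change of direction. With DESeq2, PCDHB16, CTCF and DNMT3B passed the threshold. Of the 19 members under a mean of 10, 5 were at 0 throughout and 0 of the others passed the threshold without the filter in limma, with 3 at an unadjusted p under 0.05; the lowest adjusted p-values there were 0.0802 for PCDHA8 and 0.0947 for PCDHB12.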
